A study of Danio rerio with 9 samples.

Results

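Of the mRNA transcripts of the zebrafish caudal fin, 16 had a signal of at least 1 in each of the 3 intact fin libraries and were listed at exactly 0 in each of the 3 libraries made 3 days after amputation (3 dpa). They were chosen by these 6 values, from 55393 transcripts in the mRNA table and from the 20485 that had a signal of at least 1 in all intact fin libraries. Of the 16, 11 carried an Ensembl transcript ID (ENSDART, called annotated here) and 5 carried the ID of a transcript assembled from reads (TCONS, called assembled). Their signal of at least 1 in intact fin and their 0 at 3 dpa are therefore the rule and not a finding. What follows describes their spread, their class and their level in the 3 libraries of 7 dpa, which the rule did not use. A 0 in this table is a listed value and does not show that RNA was absent, so the transcripts are called listed at 0 rather than switched off.

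The groups were intact caudal fins of wild-type zebrafish, labelled as control, and regenerating caudal fins of wild-type zebrafish at 3 dpa and at 7 dpa, labelled as fin removal. There were 3 libraries per group. The labels used here give no age, sex or strain name. They also do not state how many fish went into a library, so each p-value reflects the spread between libraries of a group, which may be technical. In bulk tissue, fewer cells of a type and less RNA per cell cannot be told apart.

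A cut caudal fin regrows from its stump. A wound epidermis first covers the cut, and beneath it fibroblasts and bone-forming cells of the fin rays give rise to a proliferating blastema, which then rebuilds rays, vessels, nerves and skin. A gene can give several transcripts with shared exons, and estimators such as RSEM, one of the tools the submitters name, divide the reads of shared exons among them, so that an exact 0 can be an estimate. Neither the files nor the name tables used link these transcript IDs to genes (0 IDs matched), so functions are not given, the tissue markers of the fin were not checked and the other transcripts of the same genes were not examined.

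The mRNA signal summed to between 406536 and 441930 per library and 18590 to 19103 transcripts were listed at 0 in each. The depth behind these values is unknown, and no interval from counting error is given. A 0 in a single library beside replicates at 1 or more occurred in every group. Intact fin had 430 such transcripts, 3 dpa had 339 and 7 dpa had 434, which was 1.86%, 1.54% and 1.92% of the transcripts at 1 or more in at least 2 libraries of the group. Most were low, with medians of 1.58, 1.48 and 1.54 for the lower of the other 2 replicates, but that value reached 35.0 for intact fin, 18.4 for 3 dpa and 86.6 for 7 dpa. The part of such zeros in the choice of the 16 transcripts was not tested.

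The most abundant of the 16 in intact fin was the assembled TCONS_00050791. It had signals of 41.56, 16.59 and 38.31 in intact fin, was listed at 0 in all 3 dpa libraries and had 19.44, 1.02 and 5.33 at 7 dpa. One 7 dpa library thus reached the range of intact fin and the others lay below it. The second, also assembled, was TCONS_00075960, listed at 0 in all 6 regenerate libraries against 20.41, 12.79 and 24.61 in intact fin. Its intact fin values lay within a factor of 1.92 of each other, and no regenerate library held a value for it at either time.

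The annotated transcript with the highest mean in intact fin, ENSDART00000167857, was high in 1 library. Its signals were 3.33, 24.21 and 4.15 in intact fin, and it was listed at 0 in all libraries at 3 and 7 dpa. The highest intact fin library stood 7.27 times above the lowest, the widest spread of the 16. Next came TCONS_00020131, with 9.49, 12.35 and 8.11 in intact fin, 0 at 3 dpa and 6.92, 7.37 and 8.92 at 7 dpa. It had the most even return, and its highest 7 dpa library overlapped the intact fin values. ENSDART00000168881 had 4.18, 7.26 and 9.25 in intact fin, 0 at 3 dpa and 4.47, 1.81 and 1.95 at 7 dpa. Here too 1 library at 7 dpa reached the intact fin range.

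**Figure D1:**
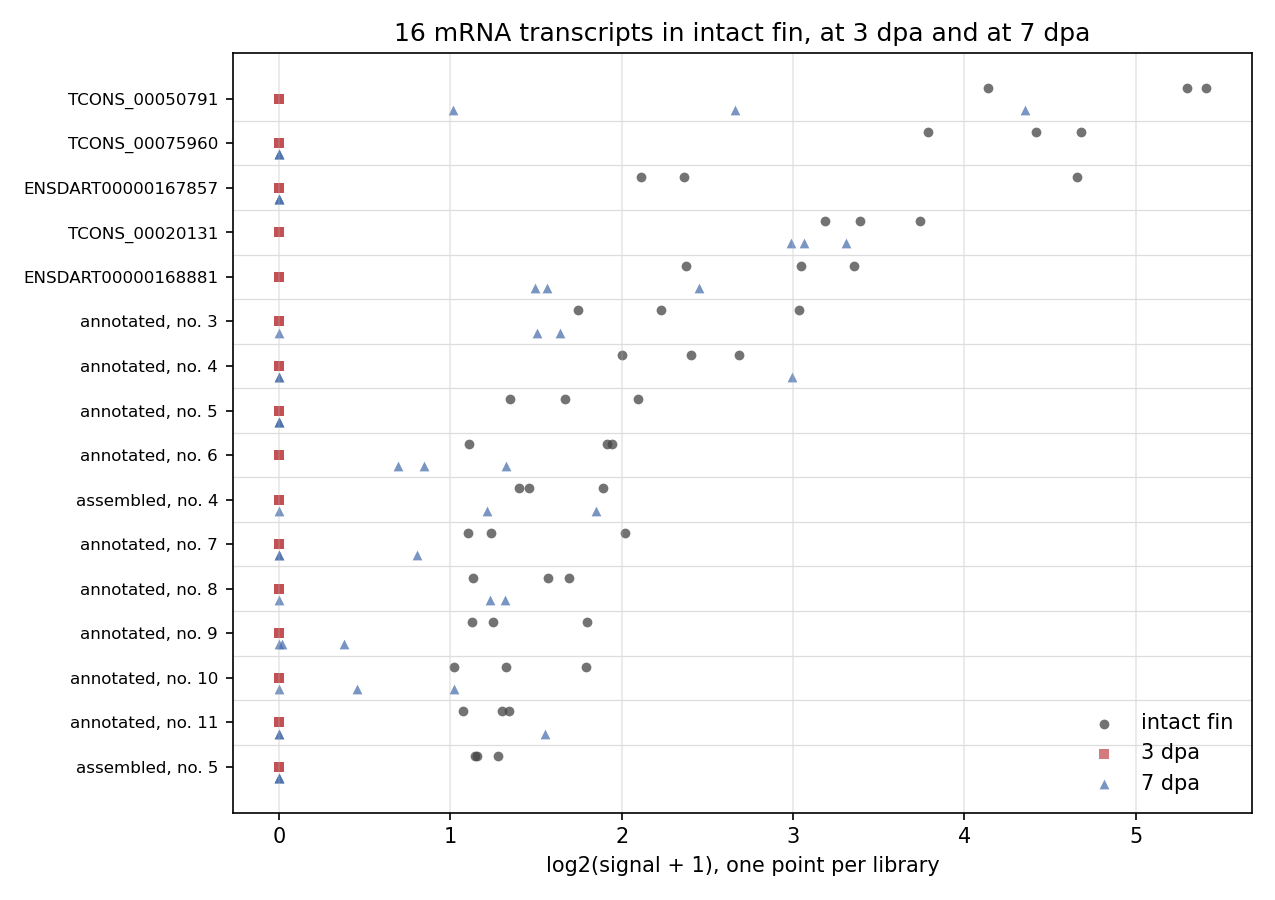
Each of the 16 transcripts has a line of points, log2(signal + 1) in every library, ordered from top to bottom by mean in intact fin, with circles for intact fin, squares for 3 dpa and triangles for 7 dpa; numbered labels give the rank by intact fin mean within the annotated or assembled class. All squares lie at 0 by the rule, while the triangles range from 0 up to or past the circles of the same transcript, and 4 transcripts have all triangles at 0.

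The other 11 transcripts, 9 annotated and 2 assembled, had means of 1.29 to 4.40 in intact fin. The third annotated transcript by intact fin mean had 2.12, 1.84 and 0 at 7 dpa, against 3.68, 2.35 and 7.18 in intact fin. The fourth had 0, 6.97 and 0 at 7 dpa, against 3.01, 5.44 and 4.29 in intact fin, so its only 7 dpa value above 0 lay above every intact fin library while the other replicates were listed at 0. The fifth was listed at 0 throughout the regenerates, against 3.27, 2.18 and 1.54 in intact fin. In the third and the fourth, replicates of 7 dpa thus ranged between a listed 0 and a signal well above 1.

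The sixth annotated transcript had 1.50, 0.80 and 0.62 at 7 dpa, against 2.77, 1.16 and 2.84 in intact fin, and was the last one with a signal in all 7 dpa libraries. The fourth assembled transcript had 2.60, 0 and 1.32 at 7 dpa, against 1.64, 1.75 and 2.70 in intact fin. The seventh annotated one had 0, 0 and 0.75 at 7 dpa, against 1.15, 3.06 and 1.36 in intact fin. The lowest intact fin values of these 3 were 1.16, 1.64 and 1.15, the first and the last close to the required signal of 1. The eighth annotated transcript had 0, 1.49 and 1.35 at 7 dpa, against 2.23, 1.97 and 1.19 in intact fin. The ninth had 0.01, 0 and 0.30 at 7 dpa, against 1.38, 2.48 and 1.18 in intact fin. The tenth had 0, 1.03 and 0.37 at 7 dpa, against 1.50, 1.03 and 2.46 in intact fin. Its highest 7 dpa value equalled the lowest in intact fin. The eleventh had 1.93, 0 and 0 at 7 dpa, against 1.46, 1.1 and 1.53 in intact fin, so 1 library at 7 dpa lay above all of intact fin. The least abundant, the fifth assembled transcript, was listed at 0 in every regenerate library against 1.21, 1.42 and 1.23 in intact fin, with an intact fin spread of 1.17 times that was the narrowest of the 16.

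At the edge of the rule, the lowest intact fin value of a member was 1.03, followed by 1.1, 1.15 and 1.16. Just outside it, transcripts listed at 0 in all 3 dpa libraries had lowest intact fin values of 0.97, 0.96, 0.92 and 0.89. In all, 233 such transcripts with a signal in every intact fin library missed the level of 1. On the 3 dpa side the nearest transcripts outside had a highest 3 dpa value of 0.07, 0.09, 0.10 and 0.10. Another 63 transcripts at 1 or more in all intact fins were listed at 0 in 2 of the 3 libraries at 3 dpa, and 275 in 1 of the 3.

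Leaving out a library of intact fin or of 3 dpa removes a condition of the rule. No member could be lost in this way, and the count could only stay or rise. The counts therefore show how many transcripts passed the looser rule, and not that any member rested on a single library. Without 1 intact fin library the rule took 37 (without replicate 1), 35 (without replicate 2) or 33 (without replicate 3) transcripts. Without 1 library of 3 dpa it took 37, 40 and 34, again for replicates 1, 2 and 3. A level of at least 0.5 in intact fin gave 41 transcripts, at least 2 gave 7 and at least 5 gave 3.

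The 16 transcripts were mostly of low to middle abundance. Their median mean signal in intact fin was 2.29, against 5.61 for the other 20469 transcripts at 1 or more in all intact fins. TCONS_00050791 stood highest, at the 92.9th percentile of intact fin means, and the fifth assembled transcript lowest, at the 1.25th. The rate of membership was 0.249% among transcripts with an intact fin mean of 1 to 2, 0.0720% from 2 to 5, 0.0401% from 5 to 10, 0.0582% from 10 to 20 and 0.0368% at 20 or above, the last from 1 transcript. Intact fin replicates were also farther apart for these transcripts. The highest replicate stood a median of 2.11 times above the lowest, against 1.29 times for the others and 1.30 times for the 18766 others within the same range of intact fin means, whose median mean was 5.19. Transcripts listed at 0 in 2 or in 1 of the 3 libraries at 3 dpa had intact fin means nearer to those of the 16, with medians of 2.62 and 2.53, and their replicates stood a median of 1.75 and 1.73 times apart. These are descriptions, since the rule used the intact fin values.

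Assembled transcripts made up 5 of the 16, a share of 31.3%. Of all 20485 transcripts at 1 or more in every intact fin, 19.2% were assembled. The shares were not tested against each other, since transcripts can share genes and are not independent. The assembled members were spread over the levels, with 1 in each of the 5 ranges of intact fin mean. Among the 20485 transcripts, the assembled share fell from 27.3% in the lowest range to 9.58% in the highest. Among members it went from 16.7% to 100%, the last from 1 transcript, and this was not tested. Of the 11 annotated members, 5 had an intact fin mean of 1 to 2 and 4 a mean of 2 to 5. Median intact fin means were 2.26 for annotated and 9.98 for assembled members, over a range of 1.36 to 10.6 and of 1.29 to 32.2. The ranges of both classes overlap, and with 5 assembled transcripts the difference was not tested.

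At 7 dpa, 12 of the 16 transcripts had a signal above 0 in at least 1 library. A signal in all 3 libraries was seen in 4, TCONS_00050791, TCONS_00020131, ENSDART00000168881 and the sixth annotated transcript, and the first 3 of these were at 1 or more in all libraries. Another 8 were listed at 0 in 1 or 2 libraries, and 4 were listed at 0 in all. Signals were present for 8, 8 and 9 of the 16 in replicates 1, 2 and 3 of 7 dpa, so no single 7 dpa library held most of the zeros. Of the 48 values at 7 dpa, 23 were 0 (47.9%). Summed over the 16 transcripts, the signal was 102, 97.1 and 112 in intact fin, 0 at 3 dpa and 39.0, 22.3 and 20.9 at 7 dpa. TCONS_00050791 gave much of this sum, and without it the sums were 19.6, 21.3 and 15.6 at 7 dpa, against 60.7, 80.6 and 73.6 in intact fin. The sums at 7 dpa lay below those of intact fin in every library with and without it.

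The mean at 7 dpa was below the mean in intact fin for all 16 transcripts, and for 12066 of the 20469 others at 1 or more in every intact fin. Among these others it was below for 58 of the 63 listed at 0 in 2 libraries at 3 dpa. The same held for 254 of the 275 listed at 0 in 1. The intact fin values of the 16 had been chosen to be at least 1 beside a 0 at 3 dpa, so this is a description. The median transcript stood at 29.0% of its intact fin mean, in a range of 0% to 77.5%, and 4 of the 16 stood above 50%. Among the 20469 others the median was 93.1%, and 19018 stood above 50%. The median rested on averaging the libraries, since within replicates 1, 2 and 3 of 7 dpa it was 0.298%, 1.59% and 17.2%. Without replicate 3 of 3 dpa, where the rule takes 34 transcripts, the median was 41.7%.

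**Figure D2:**
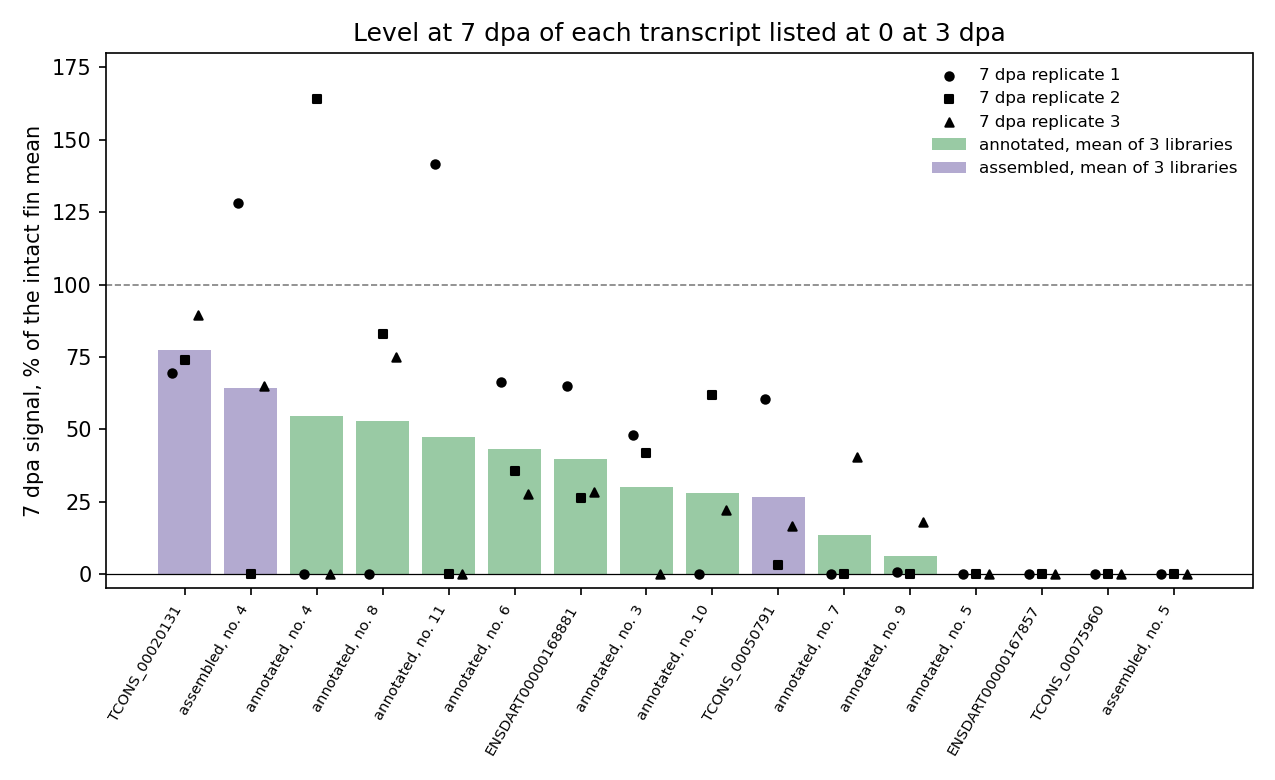
Signal at 7 dpa as a percentage of the same transcript's intact fin mean, with bars for the mean of 3 libraries (green annotated, purple assembled), symbols for single libraries and a dashed line at 100%. TCONS_00020131 leads at 77.5% with its 3 libraries close together, several other bars average a high library with libraries at 0, and 4 transcripts stay at 0%.

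By class, 9 of 11 annotated and 3 of 5 assembled transcripts had a signal in at least 1 library at 7 dpa. A signal of 1 or more in all 7 dpa libraries was seen in 1 annotated and 2 assembled transcripts, and 2 of each class were listed at 0 in all. A mixed pattern, with 0 in 1 or 2 libraries, was seen in 7 annotated and 1 assembled transcripts. Zeros made up 48.5% of the 33 annotated values and 46.7% of the 15 assembled values. The median 7 dpa level was 29.98% of intact fin for annotated transcripts (0% to 54.7%) and 26.7% for assembled ones (0% to 77.5%). The shares of zeros and the medians were close, and the difference between the classes was not tested, since transcripts are not replicates.

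Against intact fin, limma on log2(signal + 1) with Benjamini-Hochberg adjustment over 25001 transcripts called 8 of the 16 lower at 7 dpa, 5 annotated and 3 assembled, beside 13.2% of all tested transcripts. None was called higher, beside 12.4% of all tested, and none had an unadjusted limma p under 0.05 in that direction. The intact fin arm had been chosen to be at least 1 in every library, which favours lower calls. The count is therefore no evidence about the group. All 16 passed the filter through the intact fin libraries that chose them. The fit also shares its spread with the 3 dpa libraries, which do not vary for these transcripts. The part of this in the calls was not tested. With only intact fin and 7 dpa in the fit, 5 were called lower, beside 2624 of all 25001 tested. With a pseudocount of 0.1 there were 4, beside 2924 of all tested. The main fit called 3289 of all tested lower. All 7 dpa libraries lay below all intact fin libraries for 7 of the 16 (43.8%), beside 22.4% of all tested transcripts. For the other 9 the groups overlapped. The share was 27.1% for the 20469 other transcripts at 1 or more in every intact fin. It was 50.8% for the 63 listed at 0 in 2 libraries at 3 dpa and 37.5% for the 275 listed at 0 in 1.

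TCONS_00075960, at 0 in all 7 dpa libraries against 12.79 to 24.61 in intact fin, was among these calls. So was ENSDART00000167857, likewise at 0 in all 7 dpa libraries against 3.33 to 24.21 in intact fin. Both were named for a high intact fin mean among the members at 0 at 7 dpa, so their calls restate that choice and no p is given. No fold change is given for either, since the 7 dpa group is listed at 0.

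The next p-values are given as descriptions, since the intact fin values that enter them were chosen to be at least 1. TCONS_00050791 was also named for its high intact fin mean, which favours a lower call. ENSDART00000168881 and TCONS_00020131 were named for their 7 dpa values, which also enter the test. Nothing about the transcripts is read from these p-values. The log2 change of TCONS_00050791 at 7 dpa against intact fin was -2.27 (SE 0.70, limma adjusted p = 0.0431, 0.00582 to 0.117 over the alternatives). The call was lost with only these groups in the fit (limma adjusted p = 0.0883), with a pseudocount of 0.1 (0.0584) and with all transcripts above 0 in any library tested (0.0872). It was also lost without replicate 1 (limma adjusted p = 0.117) or 3 (0.116) of intact fin, without replicate 1, 2 or 3 of 3 dpa (0.0617, 0.0612 and 0.0616) and without replicate 2 (0.0885) or 3 (0.0930) of 7 dpa. ENSDART00000168881 changed by -1.09 (SE 0.30, limma adjusted p = 0.0287, 0.0103 to 0.0944 over the alternatives). Its call was lost with only these groups in the fit (limma adjusted p = 0.0626), with all transcripts above 0 in any library tested (0.0582), without replicate 2 (0.0776) or 3 (0.0944) of intact fin and without replicate 2 (0.0922) or 3 (0.0860) of 7 dpa. With the replicate numbers as a block its limma adjusted p was 0.0602. TCONS_00020131 did not pass the test against intact fin (log2 change -0.32, SE 0.15, limma adjusted p = 0.166, 0.0852 to 0.448 over the alternatives), a p that does not show equal levels.

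Against 3 dpa, 4 of the 16 were called higher at 7 dpa, beside 11.2% of all tested transcripts, and they were the 4 with a signal in every 7 dpa library. Since the 3 dpa values were chosen to be 0, a higher value was the only change possible. Nothing is read from the count, and no p is given for single transcripts. Without replicate 1, 2 or 3 of 3 dpa the count was 2 each time. Over all 25001 tested it was 1958, 2218 and 1636, against 2812 with all libraries. At 3 dpa against intact fin, the contrast that chose them, all 16 were called lower, beside 28.0% of all tested, and nothing is read from that.

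Transcripts listed at 0 in more 3 dpa libraries were also listed at 0 more often at 7 dpa. Since 1 or more was required in every intact fin library, a 0 could be seen only in the regenerates. Transcripts at 1 or more in all intact fins were sorted by the number of 3 dpa libraries in which they were listed at 0. With 3 such libraries, the 16 transcripts described here, 47.9% of the 7 dpa values were 0. The share was 22.2% for the 63 transcripts with 2 such libraries, 11.8% for the 275 with 1 and 0.354% for the 20131 with none. The median 7 dpa level ran the same way, at 29.0%, 40.1%, 52.3% and 93.6% of intact fin. The share listed at 0 in all 7 dpa libraries was 25.0%, 4.76%, 0.727% and 0.00497% in the same order. Intact fin levels were alike in the first 3 of these sets, with medians of 2.29, 2.62 and 2.53, and higher in the last, at 5.71. The spread of intact fin replicates ran the same way as the zeros. The highest stood a median of 2.11, 1.75, 1.73 and 1.29 times above the lowest, and its part in the zeros was not tested. Within the range of intact fin means of the 16, the other 18766 transcripts had 0.607% of their 7 dpa values at 0. The 7 dpa libraries took no part in the sorting, but transcripts share genes and reads, so these shares are given as a description with no test.

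**Figure D3:**
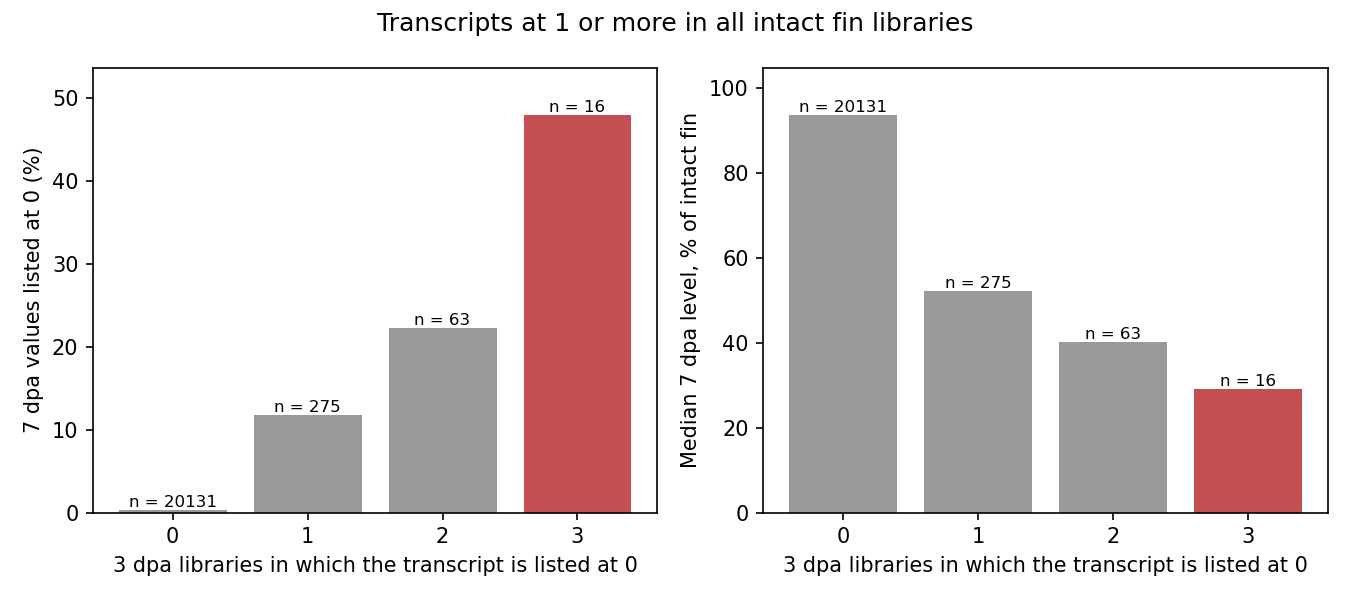
Transcripts with a signal of at least 1 in every intact fin library, grouped on the x axis by the number of 3 dpa libraries listed at 0; the left panel gives the percentage of 7 dpa values listed at 0 and the right panel the median 7 dpa level as a percentage of intact fin, with the number of transcripts over each bar. The share of zeros at 7 dpa goes from 0.354% at the left to 47.9% for the 16 transcripts in red, and the median level from 93.6% to 29.0%.

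The same rule was applied to the other ordered pairs of groups, with at least 1 in all libraries of one group and 0 in all of another. At 3 dpa 42 transcripts were at 1 or more where intact fin was listed at 0. A listed 0 at 3 dpa was the less frequent direction, with 16. The 42 came from 19729 transcripts at 1 or more in all 3 dpa libraries, and the 16 from 20485 in intact fin. At 7 dpa 10 transcripts of intact fin were listed at 0, and 18 were at 1 or more where intact fin was listed at 0. Between the regenerates, 8 were at 0 at 7 dpa and at 1 or more at 3 dpa, and 6 were at 0 at 3 dpa and at 1 or more at 7 dpa. The 16 transcripts held 4 of the 10 at 0 at 7 dpa, which is 25.0% of the 16 and 40.0% of the 10, and these lists share the intact fin libraries. They held 3 of the 6 that were at 0 at 3 dpa and at 1 or more in all 7 dpa libraries, lists that share the 3 dpa libraries. The comparison of these counts was not tested. Of 478 lncRNA transcripts at 1 or more in every intact fin, 1 met the same rule, an assembled one with 2.18, 1.61 and 2.16 in intact fin, 0 at 3 dpa and 0, 0.54 and 1.53 at 7 dpa. It had the mixed return seen in 8 of the 16 mRNA transcripts.

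**Figure D4:**
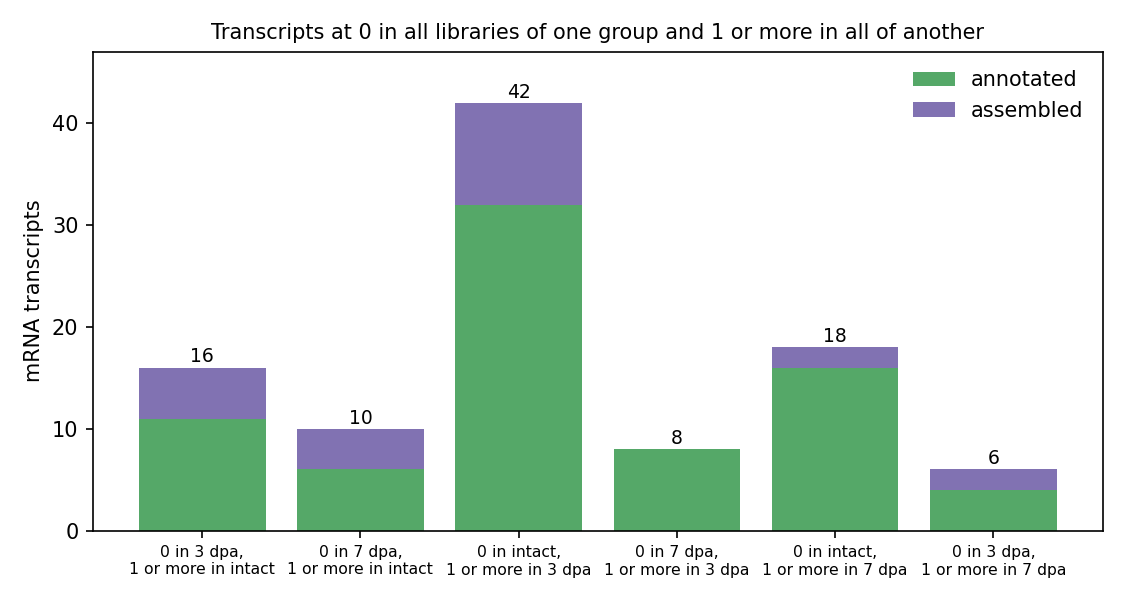
Number of mRNA transcripts listed at 0 in all libraries of one group and at 1 or more in all libraries of another, for each ordered pair of groups, with annotated transcripts in green and assembled ones in purple. The first bar holds the 16 transcripts described here (11 annotated, 5 assembled). The tallest, with 42, holds transcripts listed at 0 in intact fin and at 1 or more at 3 dpa.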

How the data were processed

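Total RNA of 9 caudal fin libraries was fragmented, randomly primed and sequenced from dUTP-marked cDNA, per the labels' protocols. The tools listed in the submitters' processing notes are RSEM, cutadapt, edgeR and TopHat2 2.0.3.12, without their roles. The build listed is the human hg38, although the organism is zebrafish, so no coordinates are given. Both tables used, of mRNA and of lncRNA, hold a signal per transcript and library as deposited by the authors, with 2 decimals. Whether it is FPKM or TPM is not stated, and depth is unknown. The circRNA table was not used here.

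The rule was applied to the deposited values. The R package limma (version 3.58.1, R 4.3.3), with a mean-variance trend and the robust option, was fitted on log2(signal + 1) to the 25001 transcripts at 1 or more in at least 3 libraries, with 3 groups and no covariate. Tests were two-sided, and calls needed a Benjamini-Hochberg adjusted p under 0.05. Descriptions were made in Python 3.11.15. An exact permutation test of 3 against 3 libraries cannot go below p = 0.1, and none was run.

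Members, named transcripts and alternatives were chosen with earlier results of these data known. IDs are printed for the annotated and the assembled member with the highest intact fin mean, with the highest lowest value at 7 dpa, and with the highest intact fin mean among those at 0 in all 7 dpa libraries. No member lay above intact fin in every 7 dpa library. Alternatives were other levels in the rule, the filter, pseudocount and robust setting of limma, unweighted trimmed mean of M values (TMM) and quantile scaling, fits of the compared groups alone, a replicate block and leaving out each library.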

Additional observations from a re-analysis of the deposited data

How the results depend on the processing

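The size of the group depended on the rule. With at least 0.5, 2 and 5 in intact fin it held 41, 7 and 3 transcripts, of which 9, 2 and 1 were at 0 in all 7 dpa libraries, and at a level of 5 the assembled share was 100%. Leaving out single libraries gave 16 to 40 transcripts, with 25.0% to 42.4% assembled. The median 7 dpa level was 19.7% to 41.7% of intact fin. In all 7 dpa libraries kept, 3 to 9 were at 1 or more and 5 to 11 at 0. Both counts could only stay or rise, since leaving out a library removes a condition. Those at 0 were 7 of 37, 11 of 35 and 8 of 33 without replicate 1, 2 or 3 of intact fin. Without a 3 dpa library they were 5 of 37, 5 of 40 and 5 of 34. The 3 dpa limit of 0.1 and TMM factors moved none of these results beyond the limits set.

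With members kept as chosen, single libraries were left out, and counts over all 25001 tested transcripts are given in brackets. The limma counts were 15 to 16 lower at 3 dpa (5841 to 6944) and 2 to 4 higher at 7 than at 3 dpa (1636 to 2730). Both counts use the 3 dpa values that chose the members, so nothing is read from them. At 7 dpa against intact fin the limma counts were 6 to 8 lower (2230 to 3035) and none higher (2290 to 2872). A filter of at least 5 in 3 libraries left 3 members tested, among 12567 transcripts. Of these members, 3 were lower at 3 dpa (4186 of all tested) and 2 higher at 7 than at 3 dpa (2338). At 7 dpa, 2 were lower than in intact fin (2406). Testing all 47172 transcripts above 0 in any library gave 2 higher at 7 than at 3 dpa (2117 of all tested). It gave 6 lower at 7 dpa than in intact fin (2686). With TMM factors 8 were lower at 7 dpa than in intact fin (2692 of 24923 tested) and none higher (3525). The main fit had 3289 lower and 3093 higher over all tested. For lower calls at 7 dpa against intact fin, a pseudocount of 0.1 gave 4 (2924 of all tested). A fit of only the compared groups gave 5 (2624 of all tested). For the last 2 settings the cause was not tested.

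Deviations of same-numbered libraries from their group means had r of -0.0230 to 0.0706 over 9 pairs. Differently numbered libraries had r of -0.114 to 0.0558. These small values cannot tell whether the numbers mark pairs. With the replicate block 16, 4, 7 and 0 members were called in these 4 comparisons. Over all 25001 tested transcripts the counts were 6588, 2383, 2806 and 2736. No named transcript changed direction under any alternative. Against 3 dpa, listed at 0 by the rule, none could fall. Against intact fin, TCONS_00075960 and ENSDART00000167857, at 0 in all 7 dpa libraries, could not rise. Nothing is read from these directions. Depth is unknown, so how far a 0 reflects few reads was not tested.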
